A study of Mus musculus with 4 samples.

Results

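Among single cells of mouse cerebral cortex taken on the day of birth (P0), 62 barcodes carried transcripts of Prox1 together with those of the Neurod family of neuronal factors. They were 62 of the 2483 P0 barcodes that passed the filters, out of 7210 such barcodes and 7270 deposited barcodes in the 4 libraries of the study. A barcode stands for 1 captured cell. It was kept if it reached 500 counts and 300 detected genes with no more than 10% of its counts from mitochondrial genes. A kept barcode was chosen when it held at least 2 counts of Prox1 and at least 2 counts of Neurod1, Neurod2 and Neurod6 in sum. It also had to hold no count of the inhibitory neuron genes Gad2 and Dlx6os1 or of the oligodendrocyte precursor genes Pdgfra and Sox10. Below, these are the Prox1 barcodes. They are set against the comparison barcodes, which are all other kept barcodes with at least 3 counts of Neurod2 and Neurod6 together, 491 in the wild-type and 508 in the knockout P0 library.

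The study profiled cortex of 1 wild-type and 1 Tsku knockout mouse at P0 and of a further pair in the embryo, on day 14.5 (E14.5). Tsku encodes Tsukushi, a secreted proteoglycan with leucine-rich repeats. The tissue was dissociated with trypsin and captured on beads with the Asteria kit, and the labels do not name the strain, the sex or the design of the knockout allele. With 1 animal per group no difference between libraries has a replicate check, so no test was made, and all intervals below are 95% intervals that cover counting error only. Genotype cannot be told apart from animal, dissection and library.

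Prox1 is a homeobox transcription factor that marks granule neurons of the dentate gyrus, the part of the hippocampal formation whose neurons continue to be born around and after birth. In the dentate lineage, progenitors pass through an intermediate stage marked by Eomes and Neurog2, then switch on Neurod1 and Prox1 as neuroblasts and immature granule neurons. Prox1 is also found outside the hippocampus, among others in certain inhibitory neurons, in thalamus and in oligodendrocyte precursors. The cortical hem, at the edge of the hippocampal primordium, is a source of Wnt signals and expresses Wnt8b, among other Wnt genes.

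The P0 knockout library held no Tsku count among 8894856 kept counts, against 42 in the P0 wild-type library. At E14.5 the wild-type library held 54, and the library labelled E14.5 knockout held 74, which goes against its label. Kept barcodes summed to 6042033 counts in the wild-type P0 library, and the 2 P0 medians were 4807 (wild type) and 5060 (knockout) counts per barcode. The 2 P0 libraries shared no barcode sequence, and no Prox1 barcode carried a sequence shared with any other library. No doublet caller was run.

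Prox1 barcodes made up 5 of 1047 kept barcodes in the wild-type library, which is 0.478% (exact binomial interval 0.155 to 1.11). In the knockout library they made up 57 of 1436, which is 3.97% (3.02 to 5.11). The share was 8.31 times as high in the knockout (interval 3.36 to 26.6). The pool from which Prox1 counts selected them was of like size, with 482 wild-type and 559 knockout barcodes that met every other part of the rule. Around the threshold, 3 wild-type and 14 knockout barcodes of that pool held exactly 1 Prox1 count, and 4 and 15 held exactly 2. At 3 to 5 counts there were 1 and 16 barcodes, and at 6 or more there were 0 and 26. Microglial barcodes, which stand here for a cell type outside the lineage, held at least 2 Prox1 counts in 2 of 20 wild-type and 3 of 44 knockout cases, at medians of 7724 and 6351 counts. In barcodes of that type, low Prox1 counts therefore occur as well.

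Some other genes known from medial cortex and hippocampus also differed between the P0 libraries, to unequal degrees. They are selected genes, with no share over all genes beside them. Outside the Prox1 barcodes, Lhx9, a LIM-homeobox factor of the medial pallium and thalamus, was at 0.332 CPM (counts per 1000000 counts, interval 0.0402 to 1.20) in the wild-type and 16.2 CPM (13.6 to 19.1) in the knockout library. Wnt8b was at 0.332 CPM (0.0402 to 1.20) and 4.57 CPM (3.25 to 6.25), and the Wnt receptor gene Fzd10 had 9 and 101 counts there. The bHLH factor gene Nhlh2 was at 11.3 and 23.4 CPM, and the Wnt effector gene Lef1 at 7.81 and 16.3 CPM. Smaller gaps were found for Zic1 (53.8 and 91.2 CPM), Emx2 (78.7 and 97.4 CPM) and Zbtb20 (1478 and 1759 CPM). The thalamic gene Tcf7l2 was closer, at 29.4 CPM in wild type and 34.2 CPM in knockout. Meis2, a homeobox factor abundant in cortical neurons, was lower in the knockout, at 1065 against 1461 CPM. The part that the tissue content of the 2 dissections has in the 5 against 57 barcodes was not tested.

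**Figure D1:**
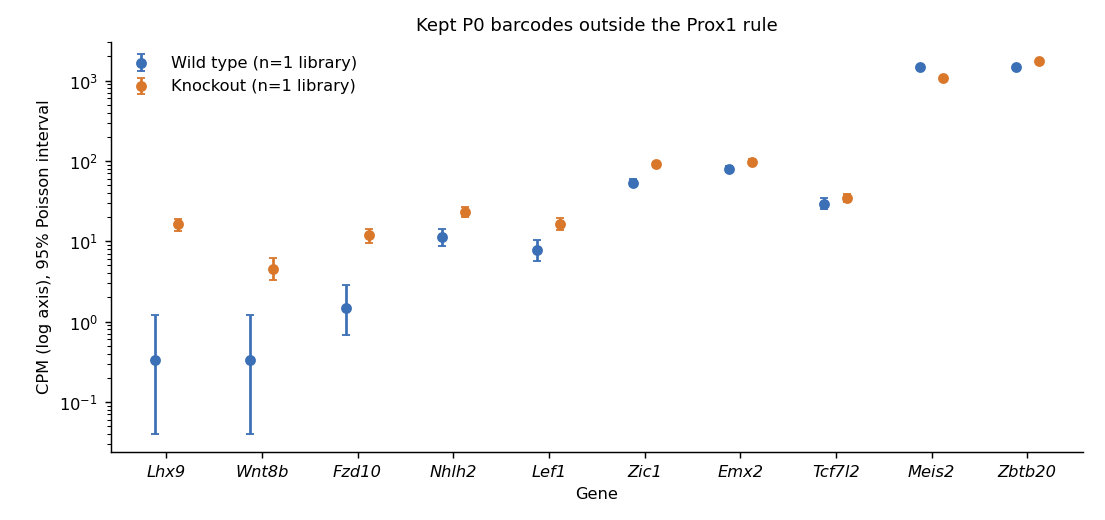
Level of 10 genes in all kept P0 barcodes outside the Prox1 rule, in CPM on a log axis, with 1 point per library and 95% Poisson bars for counting error. Lhx9, Wnt8b and Fzd10 are the genes with the widest gap between the wild-type (blue) and knockout (orange) points, the Tcf7l2 points lie close together, and Meis2 is higher in wild type.

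The 5 wild-type barcodes were unlike one another. Their totals ran from 2969 to 6383 counts. The second held 5 counts of Prox1, 5 of Neurod1, 28 of Zbtb20 and 4 of Nhlh2, with none of Meis2, and it also held the 2 Tsku counts found in this set. The other 4 each held only 2 Prox1 counts. The first held no Neurod1 and 4 counts of Meis2. The third held 11 counts each of Neurod1 and Eomes along with 21 of Meis2. The fourth held no Neurod1 and no Zbtb20, but 131 counts over the radial glia list and 56 over the astrocyte list. The fifth held no Neurod1, with 39 counts over the cell cycle list and 9 over the inhibitory neuron list. A summed wild-type profile thus mixes barcodes with different content, and 1 of the 5 combined Neurod1, Zbtb20 and Nhlh2.

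Most of the 57 knockout barcodes held Neurod1 (54) and Zbtb20. Their median depth was 5864 counts, against 3508 for the 5 wild-type barcodes. With so few wild-type barcodes at lower depth, the degree of sharing within the 2 sets cannot be compared. Prox1, chosen by the rule, ran from 2 to 32 counts with a median of 5. Neurod1, which the rule counts only in sum with Neurod2 and Neurod6, ran from 0 to 30 with a median of 6. Among genes that the rule did not use, Zbtb20, a zinc-finger factor needed for hippocampal fate, was present in 55 of 57, with a median of 30 counts and a highest value of 127. Meis2 was absent from 45. Nhlh2 was found in 29, Lhx9 in 26, Zic1 in 24, Emx2 in 37 and the chromatin remodeller gene Chd7 in 38. Markers of several other types were sparse, but the radial glia and astrocyte lists, described below, had 746 and 393 counts. The rule left out barcodes with Gad2, Dlx6os1, Pdgfra or Sox10, so low counts of the oligodendrocyte and inhibitory neuron lists are partly built in. Gad1, Dlx1 and Tsku were at 0, and 10 of the 15 inhibitory neuron genes had no count. Most of the 132 counts of that list were the 115 of Nr2f2, a nuclear receptor gene also active in caudal and medial cortex. Tcf7l2 and Reln had 2 counts each, and Gbx2 and Trp73 had none. The thalamic list as a whole had 254 counts, or 698 CPM against 381 CPM in the comparison barcodes. Calb2 (133) and Lhx9 (61), which are not confined to thalamus, gave most of them. Of the 10 Cajal-Retzius genes 7 had no count, and the 258 counts of that list were those of Calb2 (133), Nhlh2 (123) and Reln. The oligodendrocyte, endothelial, meningeal and choroid plexus lists had 6, 4, 6 and 7 counts in all. One barcode held 153 of the 155 microglial counts, and 1 held 79 of the 156 erythroid counts. Mixed content thus occurred in the knockout set as well. Neurod1 was absent from 3 barcodes, 1 of which held 87 counts over the radial glia list. Another barcode held 176 counts over that list and 74 over the astrocyte list.

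**Figure D2:**
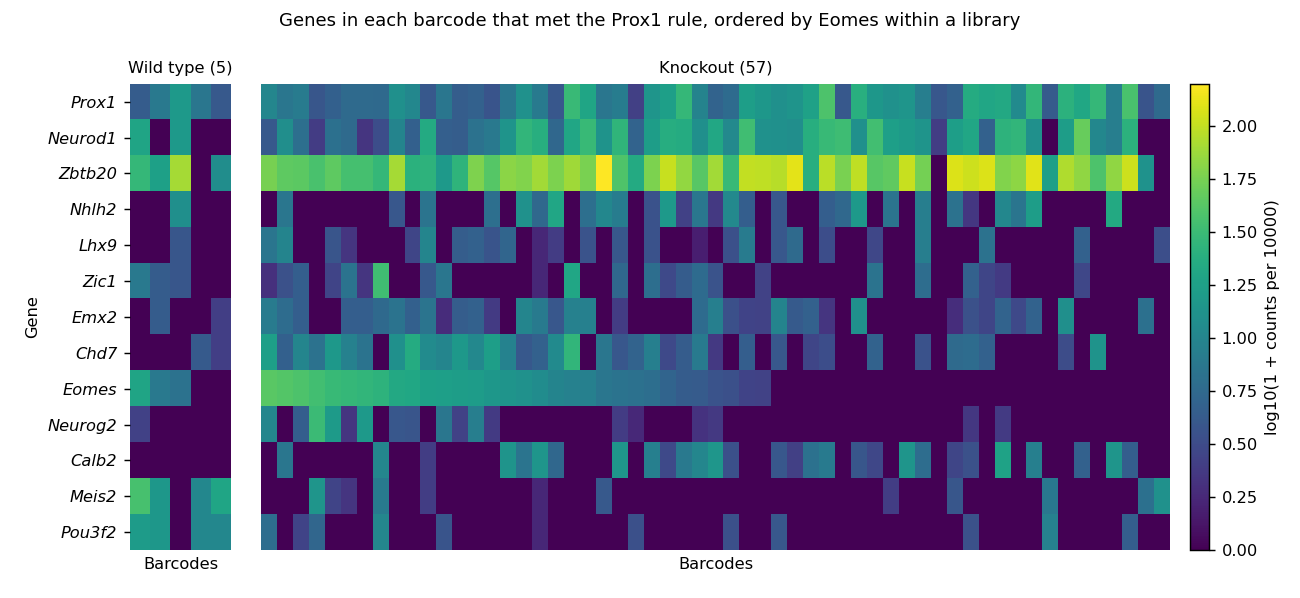
Each column is 1 Prox1 barcode (5 wild type, 57 knockout) and each row 1 gene, coloured by log10 of 1 plus counts per 10000, with barcodes ordered by Eomes within a library. Zbtb20 fills nearly every knockout column, Meis2 is present in 4 of the 5 wild-type columns and 12 of the 57 knockout columns, and Neurog2 falls mostly where Eomes is high.

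The label of a dentate granule lineage was checked against a list of 24 genes outside the rule. In the knockout Prox1 barcodes 8 of them had no count, among them Calb1, C1ql2, Dsp and Dock10, which belong to older granule neurons. Only 5 passed the filter on low values, which asked for at least 10 expected counts in the Prox1 barcodes had both sets equal levels. Calb2, a calcium-binding protein of immature granule neurons, was the single one at least 2-fold higher, at 366 against 126 CPM, a log2 ratio of 1.54. Against comparison barcodes with at least 2 Neurod1 counts, described below, its ratio was 0.84 and no gene of the list was 2-fold higher. The others were Sema5a (239 against 121 CPM), Rfx3 (90.7 against 62.3 CPM), Igfbpl1 (2168 against 1971 CPM) and Bhlhe22 (377 against 451 CPM). Tac2, Lef1 and Neurod4 fell below the filter, with 22, 20 and 18 counts in the Prox1 barcodes against 2, 10 and 10 in the comparison. The genes of the list therefore do not by themselves mark the set as granule neurons, and it is described by its rule.

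The design set the Prox1 barcodes against the comparison barcodes in both libraries at once. Only 318 genes reached 10 expected counts in each, because the 5 wild-type barcodes hold 21997 counts against 363856 in the knockout. One gene, 0.314% of those tested, was at least 2-fold higher in both libraries, and 16 genes, or 5.03%, were at least 2-fold lower in both. The higher one was Nfia, a nuclear factor I gene, with log2 ratios of 1.43 in wild type and 1.45 in knockout. Its counts in the Prox1 barcodes were 33 and 671. The lower ones with the widest margins included Mapt, which encodes the axonal protein tau, at -3.04 and -1.51. Plxna4, a semaphorin co-receptor gene, was at -2.77 and -1.69, and Cntn2, an axonal adhesion gene, at -2.54 and -2.12. Chl1, a neural adhesion gene, was at -3.41 in wild type, on 1 count, and -1.55 in knockout, and Fbxw7, a ubiquitin ligase gene, was at -2.46 on 2 counts and -1.65. Mpped1 stood at -1.99 and -2.18, and Clmp at -2.36 and -3.18. Rbfox1 and Mef2c had no count in the wild-type Prox1 barcodes, against 1254 and 1550 in the comparison. With the empty sums set to the floor of 3 counts they were 3.46 and 4.28 times lower, and counting error allows smaller gaps.

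The knockout library alone, examined after the wild-type library proved to hold 5 such barcodes, gave 6451 genes. Of these 261 were at least 2-fold higher in the Prox1 barcodes, or 4.05%, and 444 at least 2-fold lower, or 6.88%. The median log2 ratio over all 6451 genes was -0.01. The rule of the Prox1 barcodes counts Neurod1 while that of the comparison does not, and Neurod1 also marks a stage of maturation. The ratios were therefore repeated against the 120 comparison barcodes with at least 2 Neurod1 counts. There 314 of 6600 genes were higher, or 4.76%, and 386 lower, or 5.85%. Of the 6199 genes measured in both, 152 were higher in both. That is 58.2% of the 261 called there against all comparison barcodes and 71.7% of the 212 called against the Neurod1 subset. For lower genes it was 299, or 82.8% of 361 and 86.2% of 347. Both ratios use the same Prox1 barcodes, and the subset is part of the comparison, so overlap is built in and is no independent check. Both comparison sets also ask for at least 3 counts of Neurod2 and Neurod6, which only 28 of the 57 Prox1 barcodes reached. Genes that vary along with Neurod2 and Neurod6 can thus differ through the rules, and the Neurod1 subset does not remove this. The closing section gives the number of higher genes with this minimum set for both. In what follows, where 2 ratios are given, the one against the Neurod1 subset stands second.

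Nhlh2, a bHLH factor of newly formed neurons, was among the genes with the highest ratios. It was at 338 CPM in the Prox1 barcodes and 18.8 CPM in the comparison, a log2 ratio of 4.17 (interval 3.70 to 4.65) and 2.58 against the Neurod1 subset. A count of it was found in 50.9% of Prox1 barcodes (37.3 to 64.4) and 5.12% of comparison barcodes (3.37 to 7.41), at median depths of 5864 and 5005 counts. After each barcode was thinned to 2000 counts the shares were 38.6% and 2.95%, and none of the 44 microglial barcodes held one. Zic1, a zinc-finger factor of the medial forebrain, was at 206 and 34.0 CPM, with log2 ratios of 2.60 and 2.59. Emx2, which patterns the hippocampal primordium, was at 291 and 62.0 CPM (2.23 and 1.65). Lhx9 lay below the filter with 61 counts in 26 Prox1 barcodes and 28 counts in the comparison, or 168 against 9.24 CPM. Thinned, it was found in 19.3% of Prox1 and 1.77% of comparison barcodes, and in 2.27% of microglial ones.

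Zbtb20 was broad rather than particular to the Prox1 barcodes. It was at 5730 CPM there and 2654 CPM in the comparison, a log2 ratio of 1.11 (1.04 to 1.18) that was 0.44 against the Neurod1 subset. It was detected in 96.5% of Prox1 and 94.7% of comparison barcodes, and in 40.9% of microglial barcodes. The difference lay in how much each barcode held. The nuclear factor I genes, which act in hippocampal and glial development, were all higher to a modest degree. Nfia stood at 1844 against 675 CPM (log2 1.45 and 0.80), Nfib at 6536 against 4015 CPM (0.70 and 0.45) and Nfix at 4329 against 2786 CPM (0.64 and 0.63). Nfia was thus below 2-fold against the Neurod1 subset. Of the list of hippocampal field genes, 11 of 19 were measured, with 3 at least 2-fold higher and 4 lower and a median log2 ratio of -0.39. Against the Neurod1 subset 2 were higher and 1 lower, with a median of 0.36.

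Genes of the intermediate progenitor and neuroblast stage were higher in part. Of 11 measured genes 5 were at least 2-fold higher and 1 lower, with a median log2 ratio of 0.85 beside -0.01 for all genes. With the Prox1 barcodes held to the Neurod2 and Neurod6 minimum of the comparison, which leaves 28, that median was -0.26. Mfap4, a gene of the extracellular matrix, was at 195 against 10.9 CPM (4.16 and 2.91), and Gadd45g, a growth arrest gene of new neurons, at 374 against 29.0 CPM (3.69 and 2.72). Eomes, the T-box factor of intermediate progenitors, was at 981 against 193 CPM (2.34 and 1.34), and the proneural factor Neurog2 at 234 against 55.1 CPM (2.08) and against 82.5 CPM in the Neurod1 subset. Neurog2 turned to -1.31 in those 28 barcodes. Btg2, an antiproliferative gene, had 83 counts against 182 in the larger comparison set (1.93 and 1.14). Insm1, which acts in basal progenitor formation, was the lower one, at 187 against 431 CPM (-1.21 and -1.15). Nhlh1 and Neurod4 of the same bHLH family lay below the filter, with 40 and 18 counts in 17 and 10 Prox1 barcodes.

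Radial glia genes were higher as well, in fewer barcodes. Of 9 measured genes 5 were at least 2-fold higher and none lower, with a median of 1.73. Hes5, a Notch target, was at 212 against 32.7 CPM (2.70 and 2.24) but in 16 of 57 barcodes. Vim, an intermediate filament gene, was at 319 against 51.1 CPM (2.64 and 1.71), and the stem cell factor Sox2 at 236 against 58.7 CPM (2.01 and 1.56). Notch1 itself was at 173 against 29.4 CPM (2.56 and 1.84). Fabp7 was at 519 against 391 CPM, and 49.2% of its counts came from 1 barcode. The summed list ran from 0 to 176 counts per Prox1 barcode with a median of 5. Slc1a2, a glutamate transporter gene known from astrocytes, was spread more evenly, with counts in 46 of 57 barcodes and 596 against 68.3 CPM (3.13 and 2.00). Of the 3 measured astrocyte genes 2 were higher and 1 lower, and the summed astrocyte list ran from 0 to 74 counts per barcode with a median of 4.

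Wnt pathway genes split. Of 10 measured genes 4 were at least 2-fold higher and 2 lower, with a median of 0.32 that was -0.15 after thinning to 2000 counts. The ligand gene Wnt5a was at 148 against 14.2 CPM (3.39 and 2.52). The feedback target Axin2 was at 82.5 against 21.1 CPM (1.97 and 1.49), and Dkk3 at 157 against 57.4 CPM (1.45 and 0.87), with 35.1% of its counts in 1 barcode. The ligand gene Wnt7b was lower at 16.5 against 108 CPM (-2.71 and -2.99), as was the secreted antagonist gene Sfrp1 at 66.0 against 231 CPM (-1.81 and -1.71). Ctnnb1, which encodes beta-catenin, was at 1072 and 1035 CPM. Wnt8b had 9 counts, 77.8% of them in 1 barcode, and all 15 counts of Fzd10 were in a single barcode.

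The remaining high genes came from several functions. Chd7 was at 563 against 50.8 CPM (3.47 and 2.56). It was detected in 66.7% of Prox1, 11.8% of comparison and 81.8% of microglial barcodes (thinned, 50.9% and 6.30%, and 22 of 44 microglial ones). Stat3, a signal transducer of cytokine receptors, was at 313 against 36.0 CPM (3.12 and 1.83). Tnfrsf19, a receptor gene, was at 124 against 16.5 CPM (2.91 and 2.47). Immediate early genes, which respond to activity and to dissociation, had 5 of 9 measured genes at least 2-fold higher and none lower, with a median of 1.05. Against the Neurod1 subset 2 of 9 were, with a median of 0.54. Fos was at 866 against 258 CPM (1.75 and 1.11) and Jun at 550 against 265 CPM (1.05 and 0.96), and the part of dissociation in these values was not tested. Ctsd, a lysosomal protease gene, had 74.8% of its counts in the barcode with microglial counts, and Zfp36l1 had 43.1% in 1 barcode.

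Upper-layer genes were lower. Of 10 measured genes 8 were at least 2-fold lower and none higher, with a median log2 ratio of -3.17 and of -2.79 against the Neurod1 subset. Pou3f1 had 1 count in the Prox1 barcodes and 548 in the comparison, a log2 ratio of -6.04 (interval -11.35 to -3.56). Pou3f2, a POU factor of upper-layer neurons and their precursors, was at 82.5 against 1302 CPM (-3.98 and -3.68), Cux2 at 16.5 against 225 CPM (-3.77 and -3.49) and Pou3f3 at 225 against 1339 CPM (-2.57 and -2.20). Cux1 differed less, at 124 against 202 CPM (-0.71 and -0.26). Meis2, from the hippocampal field list, was at 96.2 against 1922 CPM (-4.32 and -4.10). It was detected in 95.9% of comparison, 21.1% of Prox1 and 20.5% of microglial barcodes (thinned, 89.8%, 8.77% and 11.4%). The highest Prox1 barcode held 9 counts of it.

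Deep-layer genes did not share this pattern. Of 7 measured genes 2 were at least 2-fold higher and none lower, with a median of -0.18. Against the Neurod1 subset, of 9 measured genes 2 were higher and 2 lower, with a median of -0.72, and over all alternatives the median lay between -0.72 and 0.17. Fezf2, a factor of subcerebral neurons that is also present in progenitors, was at 157 against 34.3 CPM (2.19 and 1.47). Bcl11b was at 90.7 against 140 CPM, Tbr1 at 126 against 189 CPM and Sox5 at 46.7 against 81.8 CPM. Emx1, a factor of all dorsal pallium, was at 228 against 86.8 CPM (1.39 and 1.00).

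Genes of axon guidance and migration were low as a group. Of 29 measured genes 13 were at least 2-fold lower and 2 higher, with a median of -0.68. Robo1 and Robo2, receptors for Slit ligands, were at 11.0 against 190 CPM (-4.11 and -4.01) and 57.7 against 691 CPM (-3.58 and -2.85). The ephrin receptor gene Epha5 was at 30.2 against 377 CPM (-3.64 and -3.59), and the netrin receptor gene Unc5d at 38.5 against 417 CPM (-3.44 and -3.39). Dab1, of the reelin pathway, was at 135 against 363 CPM, with a log2 ratio of -1.43 that was -0.08 against the Neurod1 subset. Epha4 went the other way at 1187 against 903 CPM (0.39 and -0.09). Cxcr4, the receptor for Cxcl12 used by migrating dentate cells, was one of the 2 higher genes, at 87.9 against 20.5 CPM (2.10 and 1.32). Its 32 counts came from 18 barcodes.

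Young neuron genes were shifted down, mostly by less than 2-fold, and genes of maturing neurons split. All 16 young neuron genes were measured, with 1 at least 2-fold lower and none higher and a median of -0.46. Of these 13 were below 0, and 15 against the Neurod1 subset, and the summed log2 ratio was -0.46 (interval -0.49 to -0.43). Dcx was at 1215 against 1942 CPM, Tubb3 at 1231 against 2422 CPM and Sox11 at 5337 against 6767 CPM. Of 12 measured genes of maturing excitatory neurons 2 were at least 2-fold higher and 2 lower, with 6 above 0 and 6 below. Against the Neurod1 subset 2 of 11 were higher and 0 lower. Over all alternatives the log2 ratio of the AMPA receptor gene Gria1 lay between 1.02 and 1.87, and that of Rbfox3 between 1.01 and 1.63. The AMPA receptor gene Gria2 was at 1355 against 2675 CPM (-0.98 and -0.64), and the NMDA receptor gene Grin2b at 113 against 222 CPM (-0.98 and -0.50).

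**Figure D3:**
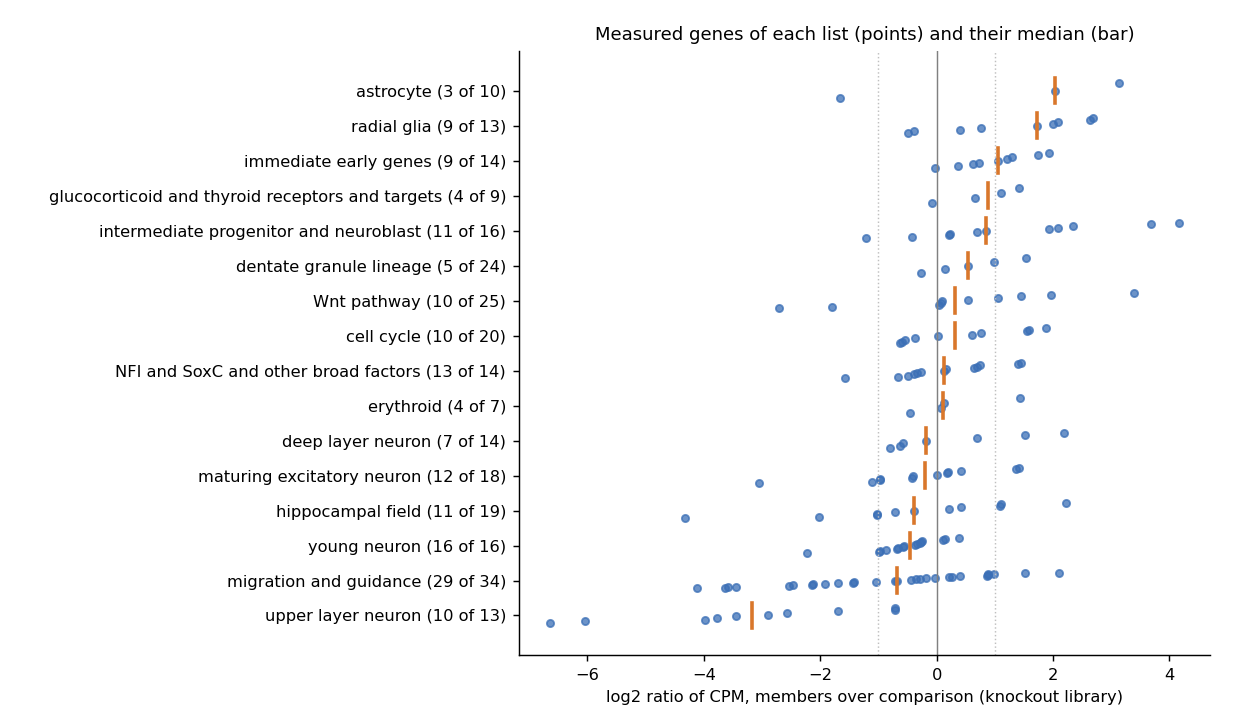
Log2 ratio of CPM in knockout Prox1 barcodes over comparison barcodes for each measured gene (points) of 16 lists with at least 3 measured genes, with the list median as a bar and dotted lines at 2-fold; numbers give measured genes of those outside the rule. All 10 upper-layer points lie below 0 with a median of -3.17, while 7 of 9 radial glia points lie above it.

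Several genes differed between barcodes with few and with many Prox1 counts. Among knockout barcodes that met every other part of the rule, those with 0, 1, 2, 3 to 5 and 6 or more Prox1 counts numbered 488, 14, 15, 16 and 26. Across these, Meis2 was at 1915, 1195, 289, 61.6 and 11.6 CPM. Robo2 was at 697, 335, 107, 92.4 and 11.6 CPM. Pou3f2 was at 1257, 706, 171, 20.5 and 69.4 CPM. These genes thus already differed between barcodes with 1 count and those with 2. Zbtb20 was at 2572, 3586, 3369, 6024 and 6842 CPM, and Nhlh2 at 17.6, 63.4, 332, 390 and 312 CPM. Lhx9 was at 10.3, 36.2, 160, 205 and 150 CPM. Of the rule genes, Neurod1 was at 228, 516, 684, 1252 and 1706 CPM, and Neurod2 at 1220, 398, 417, 257 and 295 CPM. Eomes was not ordered in this way, at 171, 942, 941, 1611 and 648 CPM, and neither was the proliferation gene Mki67, at 31.6, 1005, 278, 51.3 and 139 CPM. All 9 counts of Wnt8b in Prox1 barcodes were in those with 6 or more Prox1 counts. The barcodes with few Prox1 counts are a mixture at the edge of the rule, and they are 15 of the 57.

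**Figure D4:**
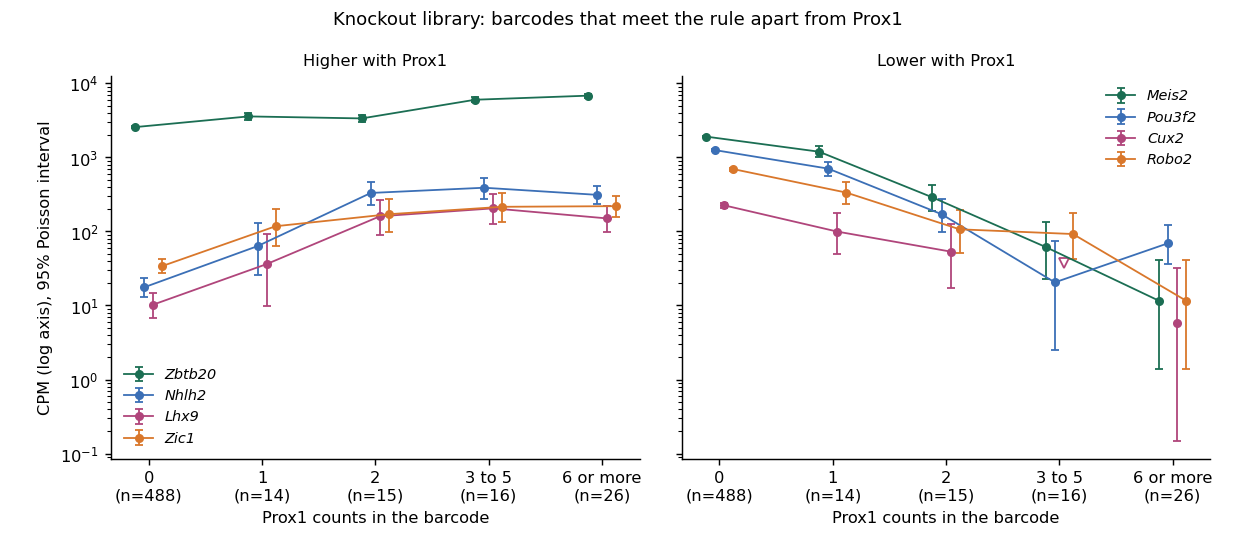
CPM on a log axis of 8 genes in knockout barcodes grouped by their Prox1 counts, with 95% Poisson bars; open triangles give the upper bound where a group had no count. Nhlh2 and Lhx9 level off from 2 counts on, while Meis2 goes on down to 11.6 CPM at 6 or more.

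The knockout Prox1 barcodes differed among themselves along Eomes. At 4 or more Eomes counts there were 22 barcodes, at 2 or 3 there were 7, and at 1 or none there were 28. These groups were formed after the counts were seen, so their differences are a description. Median depths were 7153 counts for the 22 and 5275 for the 28. Of 3645 genes, 393 were at least 2-fold higher in the 22, or 10.8%, and 339 at least 2-fold lower, or 9.3%. All 9 measured cell cycle genes were higher, with a median log2 ratio of 3.45 beside 0.02 for all genes, and 11 of the 22 held at least 5 counts of that list against 3 of the 28. The counts were uneven, since single barcodes held 131 and 129 of the 510 counts in the 22. Those 3 of the 28 were the barcode with 153 microglial counts and barcodes without Neurod1.

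The barcodes with more Eomes held progenitor genes. Neurog2 was at 461 against 13.1 CPM (log2 5.14, interval 3.24 to 8.21), the replication gene Mcm6 at 303 against 6.54 CPM (5.54, interval 3.00 to 10.87) and Hes5 at 393 against 45.8 CPM (3.10). Mfap4 was at 286 against 39.2 CPM (2.87), Chd7 at 904 against 163 CPM (2.47), Insm1 at 309 against 71.9 CPM (2.10) and Zic1 at 275 against 78.4 CPM (1.81). Top2a was at 326 CPM with 41.4% of its counts in 1 barcode. Tac2, a neuropeptide gene, had 20 of its 22 counts here, in 6 barcodes.

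The barcodes with little or no Eomes held more of many, but not all, genes of growing axons and synapses. Of 10 measured maturing excitatory neuron genes 6 were at least 2-fold lower with more Eomes and 1 higher (median -1.15). Of 20 migration and guidance genes 6 were lower and 4 higher (median -0.36). Nrn1 (3.54), Elavl4 (2.53) and Slc17a6 (1.72) were among neuronal genes higher with more Eomes. Tenm2, a synaptic adhesion gene, was at 340 against 5.62 CPM (log2 -5.92, interval -11.25 to -3.38), and Grin2b at 235 against 5.62 CPM (-5.39, interval -10.73 to -2.82). Sema5a, a semaphorin gene expressed by granule neurons, was at 432 against 22.5 CPM (-4.26), and Dab1 at 275 against 16.9 CPM (-4.03). Islr2 was at 1608 against 112 CPM (-3.84), Gria1 at 549 against 61.8 CPM (-3.15), Camk2b at 490 against 56.2 CPM (-3.13) and Mapt at 863 against 101 CPM (-3.09). Bcl11b, which is known from postmitotic granule neurons, had 25 counts in 12 of the 28 barcodes and none in the 22. Prox1 was itself at 1419 against 584 CPM, and Zbtb20 at 7021 against 4140 CPM. Other genes were alike, with Nhlh2 at 353 against 303 CPM (-0.22, interval -0.79 to 0.35), Nfib at 6655 against 6195 CPM, Calb2 at 333 against 360 CPM and Lhx9 at 137 against 213 CPM (0.64 for more Eomes, interval -0.17 to 1.48). Meis2 was low in both, at 111 and 95.5 CPM.

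**Figure D5:**
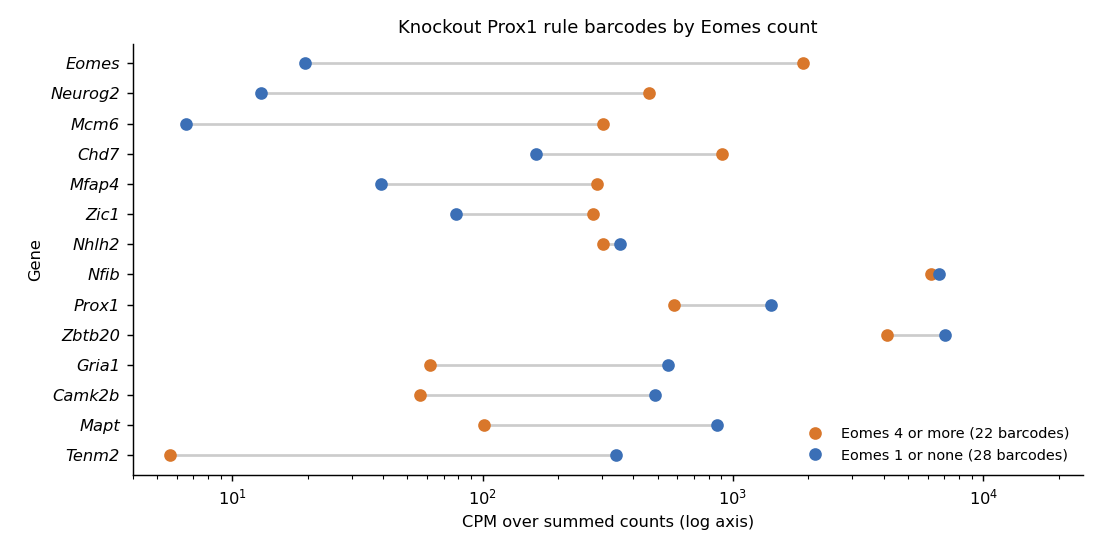
CPM (log axis) of 14 genes summed over the knockout Prox1 barcodes with 4 or more Eomes counts (orange, 22 barcodes) and with 1 or none (blue, 28 barcodes). Neurog2 and Mcm6 are right-shifted in orange, Tenm2, Mapt, Camk2b and Gria1 in blue, and the Nhlh2 and Nfib points lie close together.

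Knockout and wild-type Prox1 barcodes were also set against each other, with 57 against 5 barcodes. Over 2827 genes with at least 30 counts in both together, 448 were at least 2-fold higher in the knockout, or 15.8%, and 294 lower, or 10.4%. The wild-type side held 21997 counts against 363856, so genes near the filter passed mainly through the knockout and rest on few wild-type counts. No wild-type count at all was found for 56 of the tested genes. A 2-fold ratio of such genes can lie within counting error, and these numbers of genes are a description only. With the trimmed mean (TMM) scaling of edgeR the split became 866 and 93, so the balance of higher and lower genes depends on the scaling. Meis2 was at 1818 CPM in wild type and 96.2 CPM in knockout, a log2 ratio of -4.24 (interval -4.94 to -3.55), against -0.24 in the comparison barcodes. Pou3f2 was at 1000 against 82.5 CPM (-3.60), against -0.29 there. Their wild-type counts came from 4 of the 5 barcodes each. Sparcl1 and Fabp7, both glial genes, were at -4.42 and -2.98, but 95.5% and 94.4% of their wild-type counts came from 1 barcode, and Nrn1, a neuritin gene, was at -2.96. The 5 highest ratios, those of Pcna, Mdh2, Pdia6, Nr2f2 and Tnrc6c, ran from 2.77 to 3.14 and each rested on 1 wild-type count. The composition of the 5 wild-type barcodes, given above, moves with these ratios, and their part in them was not tested.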

How the data were processed

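The authors deposited raw gene counts per cell barcode as sparse matrices for 4 libraries, per the file contents: whole numbers over 57126 features, collapsed here to 56893 symbols. The deposited barcode and feature files give the names. The submitters' processing notes list FastQC 0.12.1, Seurat 5, R 4.3.2 and the GRCm39 build; no aligner is named there, nor how molecular identifiers were handled. Barcodes were selected and summed in Python 3.11.15 with numpy 2.4.6 and scipy 1.17.1. CPM divides a summed count by all counts of the same barcodes. Ratios carry exact conditional binomial intervals, levels exact Poisson intervals and shares exact Clopper-Pearson intervals, all at 95%; counting error only is covered, since counts from 1 library are not independent samples. A sum of 0 was set to 3 counts for a ratio, and no ratio was made where that floor exceeded the other side or where both sums were at or under it. Genes needed 10 expected counts in the Prox1 barcodes, or 30 counts over both libraries for knockout against wild type. Shares were repeated after thinning to 2000 counts.

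The Prox1 barcodes and the 24 gene lists were chosen with earlier results of these data known. Genes named were the rule genes, those with the largest and smallest ratios in both libraries, the most abundant or defining genes of each list, and the 5 highest and 5 lowest ratios of knockout against wild type. The knockout library alone, the Neurod1 subset and the Eomes groups were added after seeing the data, and genes named there were picked after their values were seen. Rule genes were left out of all gene counts. The computation was tested on simulated counts. TMM factors came from edgeR 4.0.16. The E14.5 libraries entered none of the comparisons of the report, and their values are given side by side in the closing section. No sequence is shown, since the results rest on counts of whole genes. Some genes that enter the counts and medians are not reported here by name.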

Additional observations from a re-analysis of the deposited data

Results flagged for a closer look

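The E14.5 libraries, which no comparison above uses, also held barcodes that met the Prox1 rule. They were 13 of 620 kept barcodes in the wild-type library, or 2.10% (exact interval 1.12 to 3.56), and 24 of 4107 in the library labelled E14.5 knockout, or 0.584% (0.375 to 0.868). The order of the labels was thus the opposite of that at P0, and this difference was not tested. Kept barcodes had median depths of 7345.5 counts in the wild-type library and 2829 in the library labelled knockout. The rule asks for raw counts, which shallow barcodes reach less easily, and the part of depth in the 2 shares was not tested. The library labelled E14.5 knockout held Tsku counts, so its label gives no direction. These embryonic barcodes held Tcf7l2, a factor of thalamic neurons, at 803 CPM (649 to 982) and 487 CPM (372 to 625), against 5.50 CPM in the P0 knockout Prox1 barcodes. Zic1 was at 1247 and 694 CPM against 206 CPM, and Zbtb20 at 2690 and 1260 CPM against 5730 CPM. Nhlh2 was at 376 and 343 CPM, near the 338 CPM of the P0 knockout barcodes. The gene Lhx9 was at 307 and 407 CPM against 168 CPM.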

How the results depend on the processing

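The log2 ratio of the shares, 3.06, lay between 2.69 and 3.32 in 8 of 9 alternatives, and was 4.94 with at least 3 Prox1 counts, where 1 wild-type barcode stood against 42. Thinned to 2000 counts before the rule it was 2.86. In the knockout library the genes at least 2-fold higher and lower, 261 and 444, were 112 and 245 with 20 expected counts, 540 and 732 with 5, and 70 and 227 after thinning, where fewer or more genes were tested. With Prox1 barcodes limited to Neurod2 and Neurod6 of at least 3, 107 were higher. In both libraries, 1 higher and 16 lower genes became 0 and 5 with 20 expected counts, 4 and 35 with 5, 0 and 36 with TMM, 0 and 8 after thinning, 0 and 5 with Neurod2 and Neurod6 of at least 3, and 0 and 0 with at least 3 Prox1 counts. Against the Neurod1 subset 0 were higher. For knockout against wild type, 448 and 294 became 866 and 93 with TMM, 124 and 70 after thinning, 229 and 138 with Neurod2 and Neurod6 of at least 3, and 182 and 80 with 60 counts. With at least 3 Prox1 counts 44 were higher, and without a filter 1568 were lower. The causes were not tested beyond the number of genes and barcodes. TMM moved the median log2 ratio by -0.11 in the knockout library, by -0.62 in wild type and by 0.47 for knockout against wild type. Of 702 values for 54 genes under these settings, 103 moved beyond counting error and 3 changed sign: with Neurod2 and Neurod6 of at least 3, which keeps 28 knockout barcodes, Neurog2 became -1.31 and Pcna -0.16, and against the Neurod1 subset Igfbpl1 became -0.03. Of 197 list medians 17 moved by over 1.5 times and 24 in 8 of 16 lists changed sign, all in lists whose reported median was under 2-fold. Depth limits the wild-type profile, since 3 counts there stand for 136 CPM. No paired analysis was possible because each group is 1 library.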
